A study of Rattus norvegicus with 10 samples.

Results

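The genes described here are 10 targets of the transcription factor p53 that respond to DNA damage, namely Cdkn1a, Mdm2, Ccng1, Bax, Gadd45a, Phlda3, Btg2, Sesn2, Tp53inp1 and Bbc3. Their members on the array were the probe sets that the platform annotation assigns to 1 of these genes and to no other gene. A probe set is a group of short probes read out as 1 value. The rule found 12 probe sets for 8 of the 10 genes, among 31042 probe sets on the array. Mdm2 had 3 probe sets, Cdkn1a and Sesn2 had 2 each, and the other 5 genes had 1 each. Bax was covered by 1 probe set that names a further gene as well, and no probe set named Btg2 alone, so neither gene was analysed here.

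RNA came from the livers of 10 male rats of the outbred Sprague-Dawley strain. The control group held 5 animals, and the exposed group held 5 animals given effluent from factories that produce bulk drugs, for a period called short-term. The dose, the route, the number of days, the age of the rats and the time of day at which livers were taken are not given in the sources used here. Each array stands for 1 animal, and the precision of every value is limited by how many arrays there are.

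p53 is kept scarce in an undamaged cell by Mdm2, a ubiquitin ligase that marks it for destruction. After DNA damage, kinases such as Atm release p53 from Mdm2, and p53 then switches on genes that halt the cell cycle, repair DNA or start cell death. Mdm2 is itself a p53 target, which closes a feedback loop. Several of these genes also answer to other signals in liver, such as glucocorticoids, growth factors and amino acid shortage.

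Promoter sequences are shown for 4 genes, Cdkn1a, Ccng1 and Gadd45a because they hold letters that match the p53 response element, and Mdm2 because its values ran opposite to those of Cdkn1a. p53 binds a pair of half-sites of 10 bases each. The RefSeq promoter table, on build GRCr8, gives 300 bases around a gene's start and held 7 of the 10 genes. A site with a spacer of up to 13 bases and at most 1 mismatch to the p53 half-site consensus was found in 3 of the 7 promoters and in 0.565% of 33469 promoters in the table. The search required the C and the G at the core of each half-site. With no mismatch allowed, such a pair was in 0 of the 7 promoters and 0.0598% of all. With at most 3 mismatches it was in 3 of the 7 and 14.2% of all. A single exact half-site was found in 3 of the 7 and in 7.98% of all promoters. The strands are plus for Cdkn1a (chr20:7150682-7150981) and minus for Ccng1 (chr10:25684827-25685126), Gadd45a (chr4:97486750-97487049) and Mdm2 (chr7:55200742-55201041), and capitals mark the half-sites.
Cdkn1a: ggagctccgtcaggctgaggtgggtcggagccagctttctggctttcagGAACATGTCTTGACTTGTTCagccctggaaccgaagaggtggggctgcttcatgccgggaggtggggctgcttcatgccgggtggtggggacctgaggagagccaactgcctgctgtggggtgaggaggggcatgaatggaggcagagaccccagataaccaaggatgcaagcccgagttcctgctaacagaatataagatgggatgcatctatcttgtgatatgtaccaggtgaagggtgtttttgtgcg
Ccng1: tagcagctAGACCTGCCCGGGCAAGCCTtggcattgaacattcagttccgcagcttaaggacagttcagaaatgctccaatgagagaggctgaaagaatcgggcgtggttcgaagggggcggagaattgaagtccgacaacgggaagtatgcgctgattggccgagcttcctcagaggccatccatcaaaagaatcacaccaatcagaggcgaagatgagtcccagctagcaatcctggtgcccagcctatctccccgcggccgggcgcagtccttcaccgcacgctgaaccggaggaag
Gadd45a: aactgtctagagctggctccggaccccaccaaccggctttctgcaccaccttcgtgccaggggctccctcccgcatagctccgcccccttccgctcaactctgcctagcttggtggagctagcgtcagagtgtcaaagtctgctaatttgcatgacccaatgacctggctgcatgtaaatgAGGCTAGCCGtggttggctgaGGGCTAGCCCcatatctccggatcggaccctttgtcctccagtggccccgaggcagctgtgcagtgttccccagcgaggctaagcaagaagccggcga
Mdm2: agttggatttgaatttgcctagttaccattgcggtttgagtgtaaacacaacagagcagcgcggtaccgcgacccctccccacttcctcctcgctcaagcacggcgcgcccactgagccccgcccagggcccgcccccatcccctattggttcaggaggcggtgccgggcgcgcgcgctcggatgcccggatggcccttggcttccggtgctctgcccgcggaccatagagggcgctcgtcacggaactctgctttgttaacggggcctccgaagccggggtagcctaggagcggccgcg
In Cdkn1a the half-sites adjoin and read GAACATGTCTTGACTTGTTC, with the first base at position -201 from the start used by the table. In Ccng1 they adjoin and read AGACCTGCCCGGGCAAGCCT, from position -242. In Gadd45a a spacer of 11 bases separates them and the first base lies at -69. The windows of Mdm2, Phlda3, Sesn2 and Btg2 held no such pair, which says only that these letters are absent from these windows. The well-known p53 sites of Mdm2 and Gadd45a lie in introns, outside the windows. Of 3 other motifs searched on both strands, the E-box CACGTG was in 0 of the 7 promoters and 6.42% of all, TTATGTAA, which Dbp and its relatives bind, in 0 and 0.893%, and AGGTCA, a nuclear receptor half-site, in 2 (Gadd45a and Btg2) and 16.2%. A match is a run of letters, and binding was not measured.

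The arrays resembled one another. Their medians ran from 5.43 to 5.49 on the log2 scale and any array correlated with any other at 0.991 to 0.996. All 7 measured hepatocyte markers, among them the gene for albumin, lay above the median probe set in level. The log2 ratio of 3' to 5' control probe sets, a sign of RNA quality, averaged 0.61 ± 0.08 among controls and 0.56 ± 0.04 among exposed rats (SD, n = 5), with a two-sided exact permutation p of 0.278.

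Exposed and control livers were compared to ask whether the effluent switched on this damage response. No member passed the test in either direction. Of the 12 probe sets, 9 were lower in exposed livers and 3 were higher, with differences from -0.33 to 0.16 on the log2 scale. The upper 95% limit of exposed minus control lay under a 1.5-fold rise for 12 of 12 probe sets. Over the whole array the same held for 98.6% of probe sets (99.7% for a 2-fold rise), so the members' count lies near the background. Limma called 0 of 12 members and 0 of 31042 probe sets (0%) after adjustment at 0.05, and no adjusted p on the array was below 0.879. At an unadjusted p under 0.05 it gave 1 of 12 members, against 5.46% of all probe sets. That member was lower in exposed livers, as were 2.39% of all, and 0 of 12 members were higher, against 3.07%. The groups overlapped for 12 of 12 members, and failed to overlap for 0.892% of all probe sets. A share of 48.0% of all probe sets was lower in exposed livers. The median difference was -0.06 over the members and 0.0044 over all probe sets.

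**Figure D1:**
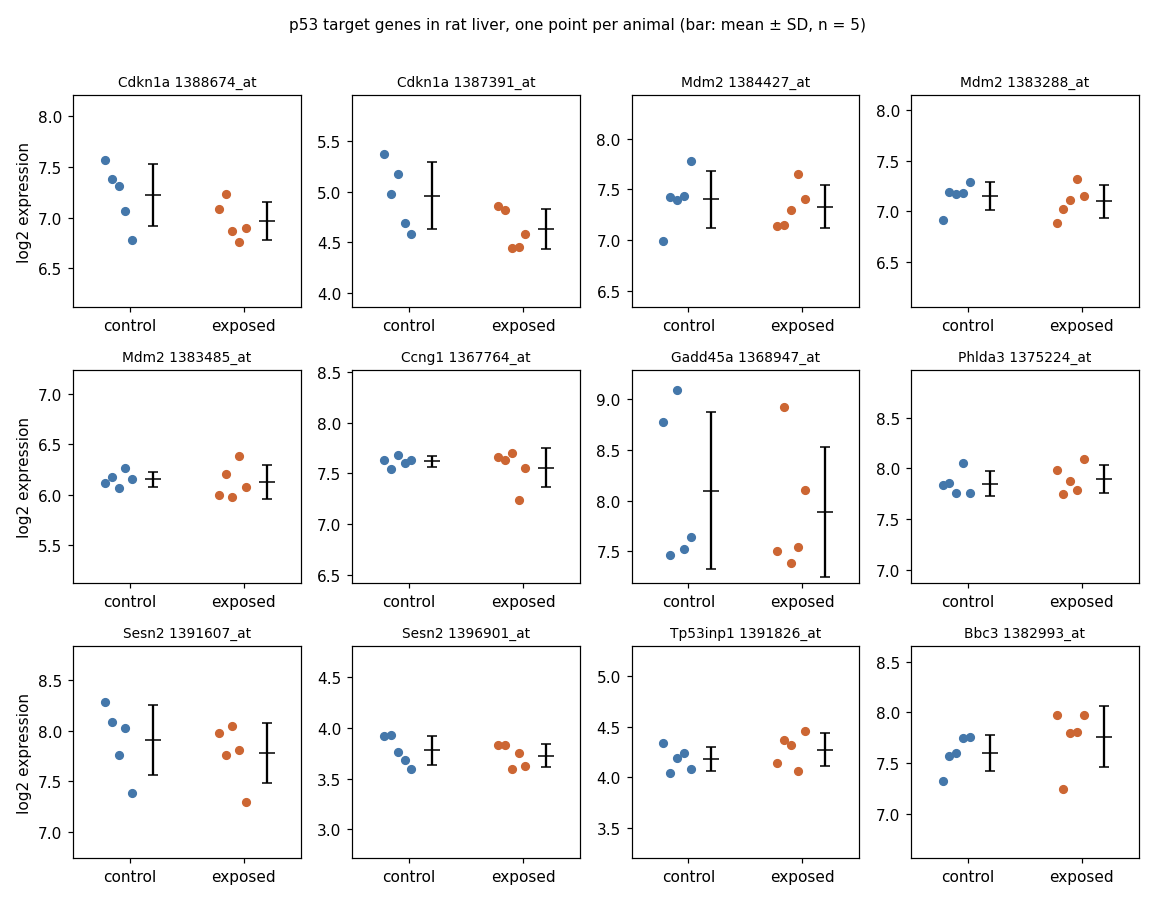
Log2 expression of the 12 probe sets in each of the 10 rats, 5 control (blue) and 5 exposed (orange), with the mean ± SD of each group as a black bar. The vertical axes differ in position between panels. The groups overlap in every panel, and Gadd45a has the widest scatter.

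Cdkn1a encodes p21, the inhibitor of cyclin-dependent kinases through which p53 halts the cell cycle. Its brighter probe set, 1388674_at, read 7.57, 7.39, 7.32, 7.07 and 6.78 in control animals 1 to 5, and 7.09, 7.23, 6.87, 6.77 and 6.90 in exposed animals 1 to 5. The 3 highest values belonged to controls, yet control 5 lay below 4 of the 5 exposed animals, so the groups overlapped. The mean was 7.22 ± 0.30 among controls and 6.97 ± 0.19 among exposed rats (SD, n = 5). The difference was -0.25 ± 0.14 (SE) on the log2 scale, with a 95% interval from 0.684-fold to 1.03-fold and a limma adjusted p of 0.880. Without control 1 the difference was -0.17.

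The other Cdkn1a probe set, 1387391_at, gave the same order of groups. It read 5.38, 4.98, 5.17, 4.70 and 4.58 in controls and 4.86, 4.82, 4.44, 4.45 and 4.59 in exposed animals. Controls 1, 2 and 3 stood above all exposed animals, and controls 4 and 5 lay among them. The difference was -0.33 with a 95% interval from -0.64 to -0.02, or at most 0.989-fold. It was the member with an unadjusted limma p under 0.05 (0.0407), and its adjusted p was 0.879. Fewer cells of a type and less RNA per cell cannot be told apart in these whole-liver samples.

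Gadd45a and Ccng1 belong to the same arm. Gadd45a encodes a small stress protein that acts on the G2 checkpoint and on MAP kinase signalling. It read 8.77, 7.46, 9.09, 7.53 and 7.64 in controls and 7.50, 8.93, 7.38, 7.54 and 8.10 in exposed animals. Controls 1 and 3 and exposed animal 2 stood far above the rest, exposed animal 5 lay between, and the other 6 animals sat close together. The difference was -0.21 ± 0.36 (SE), and its 95% interval, from 0.503-fold to 1.49-fold, was the widest among the members and ended just under the 1.5-fold line. Without control 3 the difference was 0.040.

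Ccng1 encodes cyclin G1, which recruits a phosphatase to Mdm2. It read between 7.54 and 7.68 in the 5 controls, with a median of 7.63. Exposed animals read 7.67, 7.63, 7.70, 7.23 and 7.55. Exposed animal 4 was the lowest of the 10, and the other 4 exposed animals lay within or just above the range of the controls. The difference was -0.06 with a 95% interval from 0.844-fold to 1.09-fold, and it was 0.020 without exposed animal 4.

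Mdm2 was read by 3 probe sets. The brightest, 1384427_at, gave 6.99, 7.43, 7.39, 7.43 and 7.78 in controls and 7.14, 7.15, 7.30, 7.65 and 7.40 in exposed animals. The lowest and the highest value of the 10 both belonged to controls. Its difference was -0.08 ± 0.13 (SE), with an upper 95% limit of 1.16-fold. The probe sets 1383288_at and 1383485_at differed by -0.05 and -0.03, each with an upper limit of 1.11-fold. Direction was not settled for any of the 3, since leaving out control 5 gave 0.017 for the first, leaving out exposed animal 1 gave 0.0038 for the second, and leaving out control 4, exposed animal 1 or exposed animal 3 gave 0.0010 to 0.010 for the third.

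Bbc3, Phlda3 and Tp53inp1 are the 3 members whose values were higher in exposed animals, by amounts that did not pass the test, and they are described together for that reason. Bbc3 encodes Puma, a BH3-only protein that triggers apoptosis at mitochondria. It read 7.32, 7.57, 7.60, 7.75 and 7.76 in controls and 7.98, 7.24, 7.80, 7.80 and 7.97 in exposed animals. All exposed animals but animal 2 lay above every control, and animal 2 was the lowest of the 10. The difference was 0.16 ± 0.13 (SE), with a 95% interval from 0.914-fold to 1.36-fold and a limma adjusted p of 0.912. It was 0.29 without exposed animal 2 and 0.089 without control 1.

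Phlda3, which competes with Akt for membrane lipids and so restrains Akt, averaged 7.85 ± 0.12 among controls and 7.89 ± 0.14 among exposed rats (SD, n = 5). The difference was 0.05, with an upper limit of 1.17-fold, and -0.0032 without exposed animal 5. Tp53inp1, a stress protein that promotes p53 phosphorylation and autophagy, averaged 4.18 ± 0.12 and 4.27 ± 0.16, a difference of 0.09 with an upper limit of 1.21-fold. Both groups spanned nearly the same values for each of these genes. The Tp53inp1 probe set, 1387391_at of Cdkn1a and 1396901_at of Sesn2 lay below the median probe set in level, and whether such dim values carry signal is not known from these files.

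Sesn2 encodes sestrin 2, which restrains mTORC1 and is induced by p53 and by Atf4. Its brighter probe set, 1391607_at, read 8.29, 8.08, 7.76, 8.02 and 7.39 in controls and 7.98, 7.76, 8.05, 7.81 and 7.29 in exposed animals. Animal 5 was the lowest of each group. The difference was -0.13 ± 0.17 (SE), with an upper limit of 1.18-fold. It was -0.0099 without exposed animal 5, -0.037 without control 1, -0.20 without exposed animal 3 and -0.26 without control 5. The dim set 1396901_at differed by -0.05, with an upper limit of 1.09-fold.

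**Figure D2:**
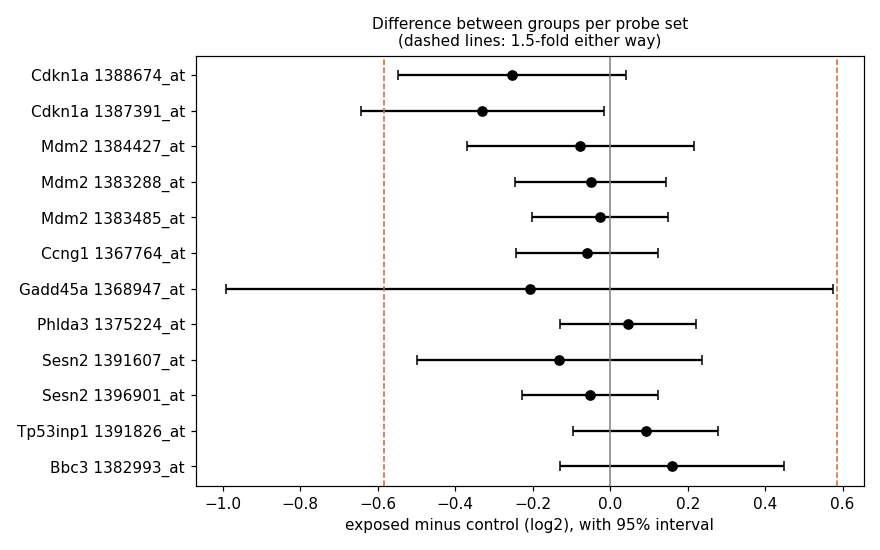
Exposed minus control on the log2 scale for the 12 probe sets, with 95% intervals from limma. Dashed lines mark a 1.5-fold difference either way; 12 of 12 upper limits lie left of the right-hand line, that of Gadd45a at 1.49-fold.

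How tightly a rise can be bounded depends on how much animals of a group differ. The median probe set on the array had an SD between animals within a group of 0.13 on the log2 scale, and 10% of probe sets lay above 0.22. Of the 12 members, 6 lay above that 90th percentile. With the percentile taken anew, the count was 5 without control 1 or without exposed animal 2, 4 without control 5 and 6 without any other single animal. Gadd45a had an SD of 0.71, larger than 99.6% of all probe sets, and its highest animal read 3.27-fold its lowest. Sesn2 1391607_at followed at 0.32, then both Cdkn1a sets at 0.27 and 0.25, and Mdm2 1384427_at and Bbc3 at 0.25 each. The SD of Bbc3 was 0.15 without exposed animal 2.

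The other 6 sets, of Ccng1, Phlda3, Tp53inp1, Mdm2 and Sesn2, had SDs from 0.13 to 0.15, near the array's median. That of Ccng1 rested on exposed animal 4, without which it was 0.057. The highest member SD was 5.49 times the lowest. Set against the 1000 probe sets nearest in level, the SD of Gadd45a exceeded 99.1%, that of Cdkn1a 1387391_at 95.7%, that of Sesn2 1391607_at 93.4%, and that of Ccng1 52.5%. The half-width of the 95% interval was 0.24 for the median member and 0.17 for the median probe set of the array. The bounds on induction were thus looser for the median member than for the median probe set.

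**Figure D3:**
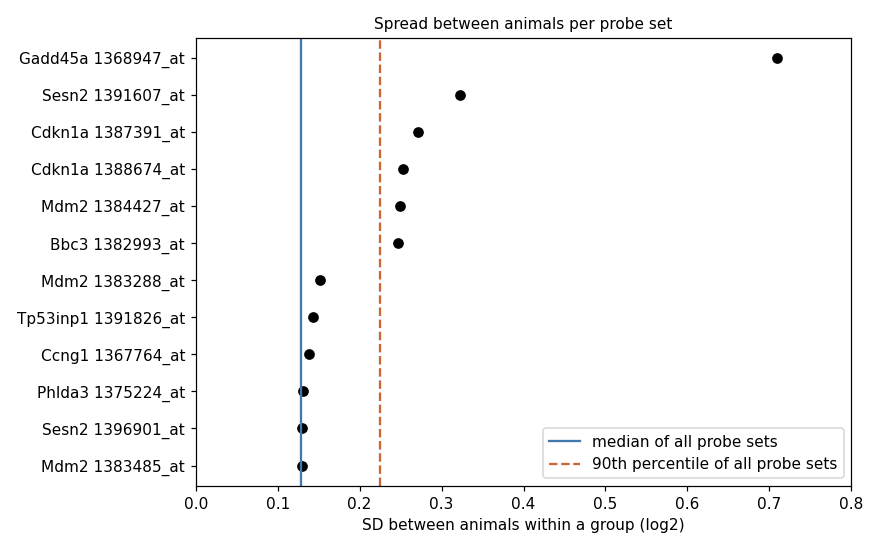
SD between animals within a group, pooled over both groups, on the log2 scale for the 12 probe sets. The solid line marks the median of all probe sets and the dashed line their 90th percentile; Gadd45a lies farthest right at 0.71.

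Co-variation with Cdkn1a was then followed across the 10 animals with group means removed, so that the comparison of groups did not enter. The brighter set, 1388674_at, served as the reference. Animals ranged from 0.34 above their group mean (control 1) to 0.44 below it (control 5). The members did not move as 1 block. Sesn2 and Gadd45a tended to be high where Cdkn1a was high. Bbc3 and the Mdm2 sets 1384427_at and 1383288_at tended to be low there, and Ccng1 and Phlda3 followed neither way. Several of these relations were common in size on the array. A larger absolute r was found in 12.1% of all probe sets for Bbc3, 18.5% for Gadd45a and 19.7% for Sesn2 1391607_at.

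The dim Cdkn1a set, 1387391_at, tracked the reference with r = 0.93 and Spearman's rho = 0.87. Both sets thus ordered the animals alike. Relations were computed for 12 probe sets, these 11 member sets and Dbp, a clock gene added after its values were seen. Each has a two-sided p from 100000 permutations. These moved the values, with group means removed, over all 10 animals and not within groups, so the permutation p values are approximate. The slope on Cdkn1a was fitted by limma over 31040 probe sets, with Benjamini-Hochberg adjustment over all of them. The slope test called 0 of 10 members, against 0.148% of all probe sets (46), of which 37 had a negative slope (0.119%) and 9 a positive one (0.0290%). The count of 46 was 0 without control 1 or control 5, 129 without exposed animal 4, and 20 to 29 without control 2, 3 or 4 or exposed animal 1 or 2, with 0 members called each time. At an unadjusted p under 0.05 it gave 6 of 10 members, against 12.4% of all (6.27% negative, 6.11% positive). These were Mdm2 1384427_at and 1383288_at and Bbc3 on the negative side, and Gadd45a and both Sesn2 sets on the positive side.

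Mdm2 1384427_at had r = -0.89 and rho = -0.83, with permutation p values of 0.00053 and 0.00467. It was lower where Cdkn1a was higher among controls (r = -0.91) and among exposed animals (r = -0.87). The slope was -0.88 ± 0.17 (SE), with a limma adjusted p of 0.0642. Without controls 1 and 5, the animals farthest from the median of Cdkn1a, r was -0.75. Over all probe sets, 0.606% had a larger absolute r than this one. Mdm2 1383288_at gave r = -0.77 (permutation p 0.00933, limma adjusted p of the slope 0.235). The third Mdm2 set, 1383485_at, gave r = -0.26.

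Bbc3 gave r = -0.66 and rho = -0.60, with permutation p values of 0.0362 and 0.0742 and an adjusted p of 0.282 for the limma slope. Without controls 1 and 5 its r was -0.62. Control 1 and exposed animal 2, each the highest of its group in Cdkn1a, were the lowest of their groups in Bbc3.

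On the positive side, the dim Sesn2 set 1396901_at gave r = 0.85 and rho = 0.78, with permutation p values of 0.00201 and 0.00973 and a limma adjusted p of 0.190. Its r without controls 1 and 5 was 0.73. The brighter Sesn2 set 1391607_at gave r = 0.57 (permutation p 0.0847), and this relation rested on those animals, since r was 0.039 without them. Gadd45a gave r = 0.59 and rho = 0.41 (permutation p 0.0768 and 0.246), and 0.51 without those animals.

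Gadd45a was high in 3 animals with Cdkn1a above their group mean, but control 2 and exposed animal 1, which also lay above, were low in Gadd45a. Tp53inp1 gave r = 0.35 (0.037 without controls 1 and 5), Ccng1 r = 0.29 and Phlda3 r = -0.07, with permutation p values of 0.315, 0.419 and 0.843. Such values lie well inside the array's range, where 90% of probe sets fell between -0.69 and 0.69 and 27.7% had an absolute r above 0.5. The r of Bbc3, Gadd45a and Sesn2 1391607_at also lay inside that range. The array thus held many strong correlations with Cdkn1a of either sign over these animals, and the reason for their number was not tested.

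**Figure D4:**
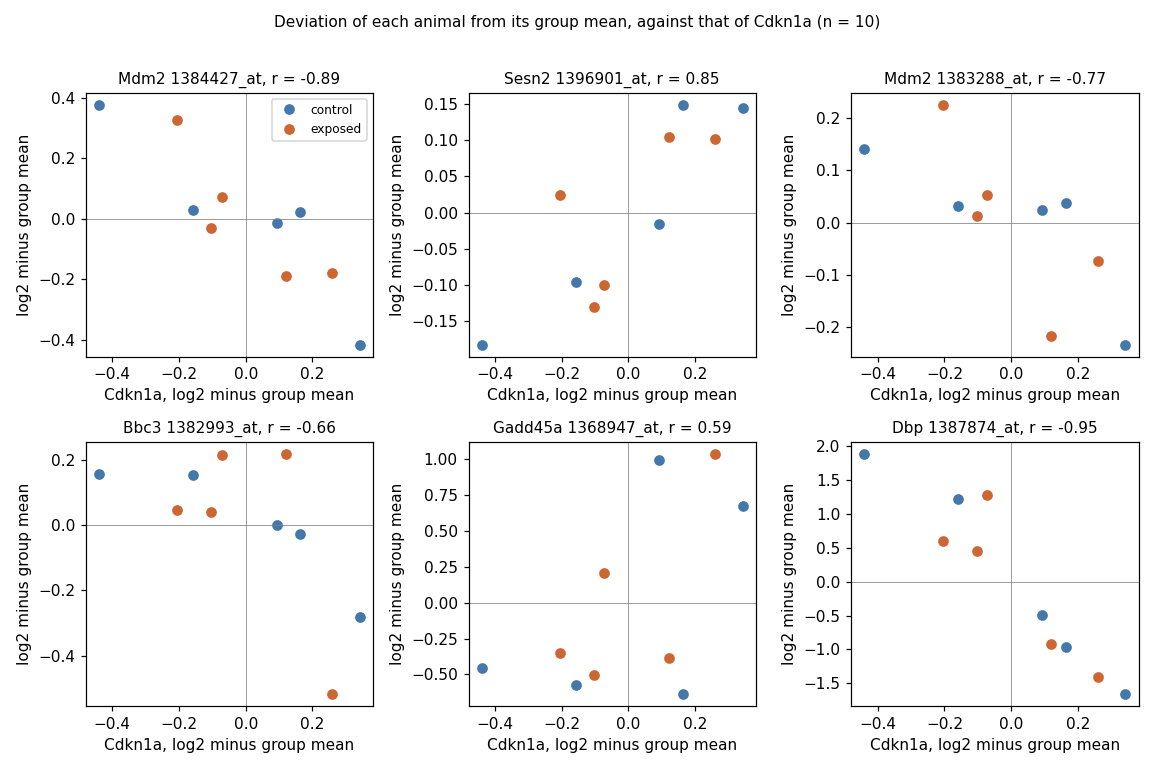
Deviation of each animal from its group mean for Dbp and the 5 member probe sets of other genes with the largest absolute r, against the same deviation of Cdkn1a 1388674_at, on the log2 scale (blue control, orange exposed). Mdm2, Bbc3 and Dbp slope down and Sesn2 slopes up; in the Gadd45a panel 3 animals lie far above the rest.

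Among themselves, the members formed 61 pairs of probe sets from different genes. In 21 pairs r was above 0, in 8 it was above 0.5 and in 16 it was below -0.5, with a median of -0.12. Pairs share probe sets and genes, and most of those below -0.5 held an Mdm2 probe set, so they are not independent. The share of such pairs over the whole array was not computed. Against Cdkn1a alone, 27.7% of all probe sets had an absolute r above 0.5. Gadd45a and Bbc3 ran opposite (r = -0.67), as did Ccng1 and Mdm2 1383485_at (-0.85). Exposed animal 2 lay farthest from its group mean in both Gadd45a (1.04) and Bbc3 (-0.52). Exposed animal 4 did so in both Ccng1 (-0.32) and Mdm2 1383485_at (0.25). The r of these pairs without those animals was not computed. Phlda3 and Bbc3 ran together (0.57), as did Gadd45a and Tp53inp1 (0.56).

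Probe sets of 1 gene did not always do so more closely. For Mdm2, r was 0.94 between 1384427_at and 1383288_at, 0.56 between 1383288_at and 1383485_at, and 0.45 between 1384427_at and 1383485_at. For Sesn2 it was 0.60. These are descriptions over the same 10 animals.

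**Figure D5:**
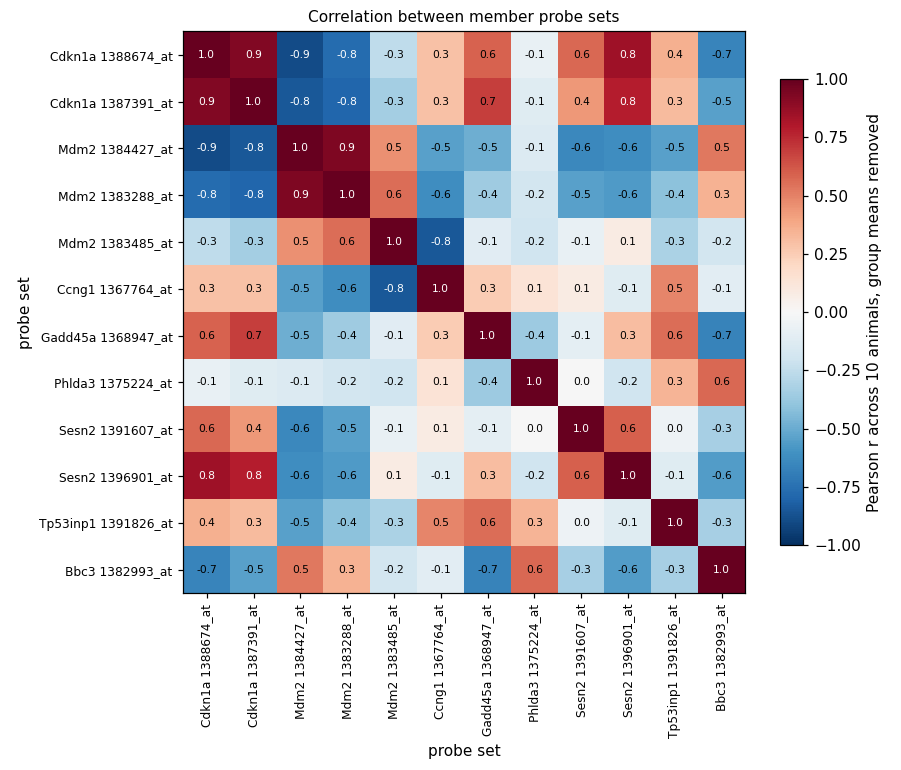
Pearson r between the 12 member probe sets across 10 animals with group means removed, from -1 (blue) to 1 (red). The Cdkn1a sets are red with Sesn2 1396901_at and Gadd45a and blue with Mdm2 1384427_at and 1383288_at.

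The strongest relation to Cdkn1a by the limma slope was that of Dbp, a transcription factor whose level in liver swings over the day. Dbp read 5.80, 6.50, 6.97, 8.67 and 9.34 in controls and 7.28, 6.79, 8.65, 8.80 and 9.47 in exposed animals. Animals 4 and 5 of both groups and exposed animal 3 were high, and the others were low, so the groups overlapped. Those 5 high animals are the ones with Cdkn1a below their group mean. Dbp gave r = -0.95 and rho = -0.92 with Cdkn1a, with permutation p values of 6e-05 and 0.00043.

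Its slope was -4.95 ± 0.50 (SE), with a limma adjusted p of 0.0132. The adjusted p was 0.0753 without control 1, 0.0829 without control 5 and 0.219 without both, while r without both was -0.92. With Dbp as a covariate, r with Cdkn1a was -0.67 for Mdm2 1384427_at, -0.10 for Sesn2 1396901_at and -0.012 for Bbc3. In the same fit r between the Cdkn1a sets themselves was 0.56, against 0.93 without the covariate. It was 0.83 for Tp53inp1 and 0.72 for Phlda3, with a limma adjusted p of 0.999 for the slope of each. With Dbp as a covariate in the comparison of groups, an alternative chosen after seeing the data, the difference for Cdkn1a 1388674_at was -0.12. The part of daily timing in these relations was not tested.

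Among genes outside the members and brighter than the median probe set, those most like Cdkn1a by r over the 10 animals were Ubl3 (0.96), Get3 (0.96), D2hgdh (0.95), Gpr182 (0.95) and Syngr2 (0.94). Most opposite were Anks4b (-0.98), Rictor (-0.97), a core subunit of mTORC2, and Gpr146 (-0.97). Anks4b read 9.18, 9.44, 9.53, 9.79 and 10.08 in controls, the reverse order of Cdkn1a. The limma slope had an adjusted p of 0.0137 for Anks4b, 0.0222 for Rictor and 0.0190 for Gpr146, while Ubl3 (0.125) and Get3 (0.0911) did not pass. In the order Anks4b, Rictor, Gpr146, the adjusted p was 0.0753, 0.129 and 0.122 without control 1, and 0.132, 0.260 and 0.167 without control 5. Without control 2 it was 0.0558 for Rictor, and with the replicate block it was 0.684, 0.684 and 0.708.

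The summed markers of 4 other liver cell types were high where Cdkn1a was high. The summed level of 4 endothelial markers correlated with Cdkn1a at r = 0.83, that of 7 lymphocyte markers at 0.74, that of 7 Kupffer cell and macrophage markers at 0.73 and that of 4 bile duct cell markers at 0.70. The sums for 7 stellate cell markers (0.12), 2 erythroid markers (-0.19) and 7 hepatocyte markers (-0.32) followed less. The median r over single markers was 0.69 for the endothelial, 0.60 for the lymphocyte and 0.76 for the Kupffer list. It was 0.34 for the bile duct list, whose markers were split between Spp1 (0.63), Epcam (0.56), Krt19 (0.12) and Krt7 (-0.51). Each sum leans on its brightest marker, such as Epcam (mean level 8.71) for bile duct and Col3a1 (11.7) for stellate cells. Some single markers departed from their sums. Stab2 (0.14) of the endothelial and Cd2 (0.11) of the lymphocyte list followed less, and Lrat (0.51) and Pdgfrb (0.46) of the stellate list followed more.

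On the log2 scale the endothelial sum ran from 11.2 to 11.6 in controls and 11.3 to 11.6 in exposed animals, the Kupffer sum from 11.0 to 12.2 and 11.3 to 12.3, and the lymphocyte sum from 7.59 to 7.97 and 7.63 to 8.05. The bile duct sum ran from 8.92 to 9.35 in controls and 8.92 to 9.19 in exposed animals, and the hepatocyte sum from 17.0 to 17.1 in each group. All 7 Kupffer markers and 6 of 7 lymphocyte markers were higher in exposed livers, the side opposite to Cdkn1a, and only 1 of the 7 lymphocyte markers lay above the median probe set. RMA values have no 0, so absence of a marker cannot be read. The RNA quality ratio correlated with Cdkn1a 1388674_at at r = -0.67 and with Mdm2 1384427_at at 0.67, and control 5 had the highest ratio. The part of cell makeup and RNA quality in the co-variation was not tested beyond a fit with that ratio as a covariate. In that fit r of Mdm2 1384427_at was -0.80. The limma adjusted p of its slope was 0.450, against 0.0642 without the ratio. The slope test then called 4 probe sets, against 46 without the ratio.

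Other genes of the pathway were taken from lists, each gene by its brightest probe set, with 0 genes called by limma in any list. Of 33 further p53 targets 26 were measured, 10 higher and 16 lower in exposed livers, with a median difference of -0.01 and 0 at an unadjusted p under 0.05. Over all 14217 genes, 6978 were higher and 7239 lower, the median was -0.0021 and 5.20% had an unadjusted p under 0.05. Upper limits lay under a 1.5-fold rise for 26 of 26 of these targets and for 13950 of the 14217 genes. Fas, a death receptor, had the smallest p of them with a difference of 0.25 ± 0.13 (SE), followed by Dram1, an autophagy regulator, at 0.24 ± 0.13 and Plk2, a kinase of the cell cycle, at -0.28 ± 0.23.

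Of 18 listed regulators of p53, p53 itself included, 15 were measured, 5 higher and 10 lower. Rchy1, a ubiquitin ligase for p53, read 8.98 to 9.12 in controls and 8.81 to 8.96 in exposed animals. The groups did not overlap, as for 0.892% of all probe sets. The difference of -0.17 ± 0.06 (SE) had an unadjusted p of 0.0100 and an adjusted p of 0.879 by limma. Mdm4, the partner of Mdm2 that inhibits p53, read 5.32 to 6.50 in controls and 5.99 to 6.95 in exposed animals, with a difference of 0.48 ± 0.22 (SE) and the same adjusted p.

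Among DNA repair genes 33 of 37 were measured, 18 higher and 15 lower, with a median difference of 0.01. Nbn, a subunit of the complex that senses double-strand breaks, read 8.18 to 8.59 in controls and 7.96 to 8.17 in exposed animals, with -0.23 ± 0.09 (SE) as the difference and 0.879 as the limma adjusted p. Its groups only just failed to overlap, with the lowest control at 8.177 and the highest exposed animal at 8.174. Over all probe sets 0.892% failed to overlap. Control 5 stood above the other controls in Nbn. H2ax, the histone marked at such breaks, differed by -0.22 ± 0.11 (SE), and by -0.10 without control 1.

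Against Cdkn1a, the repair genes Ercc2 (r = -0.86), Ercc5 (-0.84) and Ung (-0.81) ran opposite, without passing the slope test, and Polb (0.69) and Xrcc5 (0.60), named after their values were seen, ran with it. The median r of the list was -0.08. Ercc5, which also stands among the p53 targets here, cuts damaged DNA in nucleotide excision repair, Ercc2 unwinds it there, and Ung removes uracil.

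Relatives of the members, which share a protein family but are not all p53 targets, were 16 of 16 measured, 8 higher and 8 lower, with a median r with Cdkn1a of 0.31 against 0.035 over all genes. Btg1, an antiproliferative relative of Btg2, gave r = 0.92 (limma adjusted p of the slope 0.0521), Gadd45g 0.85 (0.0582) and Ccng2 0.80 (0.150). Gadd45g read 7.56, 7.28, 7.82, 5.99 and 5.98 in controls and 7.31, 7.78, 5.49, 6.03 and 6.26 in exposed animals. The same 5 animals with Cdkn1a above their group mean were high in Gadd45g.

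Lists for other inputs to these genes gave no call between groups. Of 13 genes of the Atf4 and Chop pathway 6 were higher and 7 lower, Atf3 by 0.30 ± 0.13 (SE), and Cebpb (r = -0.87) and Atf4 (-0.72) ran opposite to Cdkn1a (median r of the list -0.08). Of 12 immediate early genes 8 were higher, and Ier2 (0.76) and Myc (0.74) ran with Cdkn1a (median r 0.18). Of 14 measured glucocorticoid and fasting genes 10 were lower, Fkbp5 by -0.25 ± 0.10 (SE), with a median r with Cdkn1a of -0.14. Tsc22d3, a glucocorticoid target, ran with Cdkn1a at 0.85, while the metallothioneins Mt2A (-0.81) and Mt1 (-0.79) ran opposite.

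Of 13 measured clock genes 7 were higher and 1, Dbp, passed the slope test, while Tef (r = -0.91) and Nr1d2 (-0.86) did not. Signs in this list were mixed, with a median r of -0.17. Bmal1 (0.83) and Cry1 (0.51) ran with Cdkn1a, also without passing the slope test. Tef is a relative of Dbp and Nr1d2 a repressor in the clock. Of 14 measured proliferation genes 8 were higher, and their median r with Cdkn1a was 0.54.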

How the data were processed

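Expression was deposited by the authors as 1 log2 value per probe set and array. The submitters' processing notes name RMA and R 2.8.1. RMA subtracts background and gives all arrays a common distribution, so an overall shift of an array is removed. That the scale is log2 was inferred from the range, 2.19 to 15.0. Of 31099 probe sets, 57 array controls were left out. The platform annotation names 1 gene for 20826 sets and several for 436, 9780 are unnamed here, and 20758 were matched by Entrez number to RefSeq GRCr8 genes. The array's genome build is not given in the sources used here.

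Both groups hold 5 animals. Differences and slopes were fitted over all probe sets by limma 3.58.1 (R 4.3.3, two-sided moderated test), adjusted over all of them (Benjamini-Hochberg) and checked on simulated data. The simulated noise was independent between probe sets. That check therefore cannot show how the slope calls behave when probe sets vary together between animals. Intervals are at 95%. The members and lists were chosen with earlier results of these data known. The text names all member probe sets, up to 3 genes per list by p and 3 by r with Cdkn1a, and the 5 highest and 3 lowest r among all genes. Marker sums add linear values within a list and are given as log2. Alternatives covered a filter on low values, scaling, weights, priors, covariates, a replicate block, the other Cdkn1a probe set and leaving out animals.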

Additional observations from a re-analysis of the deposited data

Results flagged for a closer look

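Among the 82 groups of 5 values examined for the genes named here, 4 held 1 animal far from its group, and chance gives about 1 in 20, or 4.1. Bbc3 read 7.24 in exposed animal 2, while the other exposed animals read 7.80 to 7.98. The same animal read 5.90 for Ercc2, a helicase of nucleotide excision repair, against 6.10 to 6.15 in the others. Nbn read 8.59 in control animal 5, against 8.18 to 8.28. H2ax read 8.19 in control animal 1, against 7.58 to 7.70.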

How the results depend on the processing

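Members called between groups stayed at 0 in all 18 alternatives. Among all probe sets the count was 0, and 0 to 1 without 1 animal (1 without exposed animal 1). The count of members whose interval excluded a 1.5-fold rise was 11 of 12 with quantile normalization, the replicate block, array weights, a trended and robust prior or Dbp as covariate, 8 of 9 with a filter on low values, and 11 to 12 without 1 animal. The count of 46 probe sets in the slope on Cdkn1a was unstable. It was 132 with the filter, 80 after centring, 105 with the trended and robust prior, 4 with the RNA ratio, 3 with group means left in, 102 with the other Cdkn1a probe set, 0 with the replicate block, with Dbp as covariate or without the 2 farthest animals, and 0 to 129 without 1 animal (0 without control 1 or control 5). Members called there were 1 with the filter (Mdm2 1384427_at, limma adjusted p 0.0464) and 1 with the trended and robust prior.

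Signs turned only for values that did not pass the test. With the replicate block, r was 0.11 for Mdm2 1383485_at, -0.078 for Ccng1, 0.31 for Phlda3 and -0.18 for Sesn2 1391607_at. With the RNA ratio, differences were 0.053, 0.015 and 0.0012 for the Mdm2 sets and -0.0031 for Phlda3. With Dbp, the difference of Sesn2 1396901_at was 0.014, and r was 0.72 for Phlda3, -0.15 and -0.10 for the Sesn2 sets and -0.40 for Ier2. Without 1 animal, differences ran from -0.18 to 0.017, -0.11 to 0.0038 and -0.089 to 0.010 for the Mdm2 sets, -0.098 to 0.020 for Ccng1, -0.47 to 0.040 for Gadd45a and -0.0032 to 0.095 for Phlda3, and r from -0.0082 to 0.43 for Ccng1 and -0.39 to 0.13 for Phlda3. The cause was not tested. Over all probe sets, the deviations of animals sharing a replicate number correlated at -0.070 to 0.094. Dbp and Cdkn1a 1388674_at nonetheless followed the replicate number. In both groups animals 1 and 2 lay below their group mean in Dbp and above it in Cdkn1a. Animals 4 and 5 of both groups did the reverse. What the replicate numbers stand for is not given in the sources used here. Under the replicate block the limma adjusted p was 0.684 for the slope of Dbp and 0.718 for that of Mdm2 1384427_at.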
